A study of Mus musculus with 32 samples.

Results

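Aminoacyl-tRNA synthetases, the enzymes that join each amino acid to its transfer RNA, were followed at the transcript level in late 2-cell mouse embryos, sequenced one by one. The genes were chosen by name, and all 36 were found among the 34223 genes of the table: 20 in the cytoplasmic list, of which Gars and Kars serve the mitochondrion as well, and 16 that encode mitochondrial enzymes. All embryos were wild type and had been injected with mRNA for histone H3.3 fused to GFP, and GFP-positive embryos were collected 28 h after in vitro fertilization. In 16 embryos (Val_LNA) the injection also held an oligonucleotide with locked nucleic acid bases, designed as the antisense of a valine tRNA fragment named tRFValCAC, and in the other 16 (Ctrl_LNA) a scramble oligonucleotide of the same kind. The question put to these genes is whether the transcripts for the tRNA-charging enzymes differ when the fragment is inhibited. Each library is 1 embryo. Since the labels name neither the matings nor the day of injection, each p-value speaks only for the spread among these 32 embryos.

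Each synthetase pairs 1 amino acid with its own tRNAs and so sets the genetic code at the moment of charging, and most cells keep separate enzymes for the cytoplasm and for the mitochondrion, all encoded in the nucleus. Several cytoplasmic enzymes, among them those for isoleucine, leucine, methionine, glutamine, arginine, lysine, aspartate and the fused glutamate and proline enzyme, are held together with 3 scaffold proteins in the multisynthetase complex. Many cytoplasmic synthetase genes are known targets of ATF4, the transcription factor that cells make when amino acids run short and that binds the amino acid response element. At the late 2-cell stage the embryo degrades RNA inherited from the egg while its own genome becomes active, so a level can hold both stored and newly made transcripts.

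The stage named in the labels was checked against markers. All 12 late 2-cell genes in the table, from a list of 13, and 13 of 13 egg genes reached a normalized count of 10 in at least 16 embryos, against 1 of 16 genes of cumulus and granulosa cells (Amhr2) and 0 of 6 sperm genes in the table. Recovered depth lay between 2592925 and 6259870 reads per embryo. Of the 32 embryos, 31 had between 16687 and 20200 genes above 0, and control embryo Ctrl_LNA 48 had 7276. That embryo was under 10 for 27 of the 36 synthetase genes and at 0 for 21, whereas the other 31 embryos were under 10 for 1 to 11. It was also the highest control for 7 members, Aars, Hars, Iars, Nars, Rars, Ears2 and Fars2. Most differences that this embryo moves are given with and without it. Levels are normalized counts, that is gene counts divided by the size factor of each embryo, and a log2 difference is the mean of log2(normalized count + 1) in Val_LNA minus that in Ctrl_LNA.

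Among the 35 synthetase genes that could be tested, 1 was lower in Val_LNA embryos at a Benjamini-Hochberg adjusted p under 0.05 (limma), namely Iars, the isoleucine enzyme of the cytoplasm, and 0 were higher. The background over all 15559 tested genes was 1.31% lower and 0.881% higher. The remaining 34 did not pass. At an unadjusted p under 0.05, limma had Aars, Dars and Kars on the higher side and Iars on the lower, against 8.88% and 5.85% of all tested genes. The median log2 difference was 0.13 over the 35 members, 0.11 in the cytoplasmic and 0.16 in the mitochondrial list, beside 0.26 over all tested genes. Without Ctrl_LNA 48 these medians were -0.05, -0.13 and -0.05 beside 0.07, so the sign of the list medians turned with that embryo. Centring each embryo on its median gene moved the median of all tested genes to -0.19 and that of the members to -0.32, with all embryos. Centred without Ctrl_LNA 48 they were -0.0004 and -0.12, so the shift made by centring was smaller without that embryo. Small differences are read against these shifts. Fewer cells and less RNA per cell cannot be told apart in a library made from a whole embryo.

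**Figure D1:**
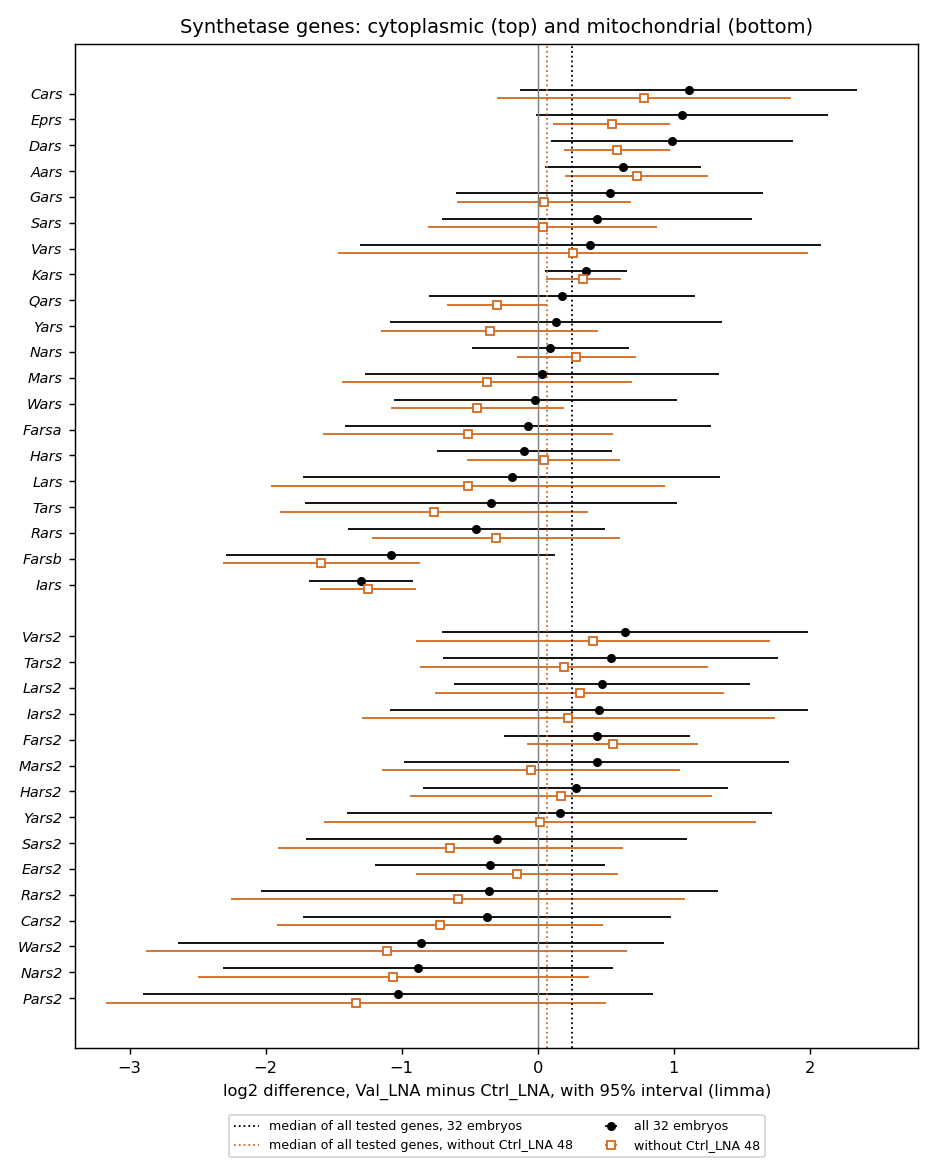
Log2 difference (Val_LNA minus Ctrl_LNA, horizontal axis) with its 95% interval from limma for the 35 tested synthetase genes, with all 32 embryos (filled circles) and without Ctrl_LNA 48 (open squares). Dotted lines are the medians of all tested genes, 0.26 and 0.07. The interval of Iars lies below 0 in both fits, that of Farsb only without Ctrl_LNA 48, and the signs of Qars, Yars, Nars, Mars and others near 0 depend on the embryos and the scaling used.

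The count of called members was set beside the background in the other fits as well. Without Ctrl_LNA 48 limma called 2 synthetase genes lower, Iars and Farsb, and 0 higher (background 2.63% and 1.57%). EdgeR's quasi-likelihood test on the recovered reads called Iars lower with all embryos (1.05% lower and 0.186% higher in the background) and Iars and Farsb without Ctrl_LNA 48 (1.61% and 0.54%). DESeq2 called the same 2 genes lower with all embryos (2.17% and 1.32%) and without that embryo (2.58% and 1.71%). Nothing particular to the family is drawn from counts of 1 or 2 in 35, and what follows is about its single members.

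Iars encodes the cytoplasmic isoleucyl-tRNA synthetase (ENSMUSG00000037851.13, chr13:49682100-49734267, plus strand, GRCm38), a large class I enzyme and a member of the multisynthetase complex. Its window around the RefSeq start site holds a pair of motifs on which the later comparison of promoters draws. The 250 bases upstream of the start are shown because they hold an E-box, CACGTG, the only capitals in the run, which begins 69 bases before the start (GRCm38.p6, chr13:49681880-49682129, plus strand, from RefSeq).
Iars upstream: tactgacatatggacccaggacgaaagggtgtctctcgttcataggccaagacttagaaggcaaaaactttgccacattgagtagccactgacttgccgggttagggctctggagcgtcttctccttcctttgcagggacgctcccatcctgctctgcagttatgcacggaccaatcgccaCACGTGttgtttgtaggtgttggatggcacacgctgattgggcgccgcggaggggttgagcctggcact

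In the 16 Ctrl_LNA embryos Iars had a lowest normalized count of 820, a median of 1252 and a highest of 2148. In the 16 Val_LNA embryos the lowest was 238, the median 539 and the highest 823. The groups all but separated: 15 of 16 Val_LNA embryos lay below the lowest control, and 15 of 16 controls lay above the highest Val_LNA embryo. Group means were 532 ± 176 and 1298 ± 417 (SD, n = 16 each), which makes the control mean 2.44-fold higher. The log2 difference was -1.30 (standard error 0.19, 95% interval -1.68 to -0.92, limma adjusted p = 3.90e-05). Iars ranked 17 by p among the 15559 genes. Without Ctrl_LNA 48, its highest control, the difference was -1.25 (limma adjusted p = 2.09e-05).

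Labels number the embryos in unbroken runs of 8, Val_LNA 1 to 8 and 13 to 20 and Ctrl_LNA 31 to 38 and 43 to 50, and do not say that a run is a batch. In the lower runs the Iars means were 482 ± 167 in Val_LNA against 1288 ± 347 in Ctrl_LNA (SD, n = 8 each), a log2 difference of -1.45 (limma adjusted p = 0.00547; background 0.533% lower and 0.623% higher). In the upper runs they were 582 ± 180 and 1308 ± 502 (SD, n = 8 each), a difference of -1.15 that did not pass (limma adjusted p = 0.141; background 0.212% lower and 0.0129% higher). Without Ctrl_LNA 48 the upper runs gave -1.03 (limma adjusted p = 0.0613; background 0.797% lower and 0.045% higher). The direction was thus the same in both runs, and with 8 embryos a group the lower runs passed and the upper did not. Summed egg markers stood at 23763 ± 11371 normalized counts in Val_LNA against 16504 ± 7893 in Ctrl_LNA (SD, n = 16), with ranges of 10213 to 53921 and 7707 to 33619. Summed late 2-cell markers stood at 13143 ± 8355 and 9335 ± 8191 (SD, n = 16), with ranges of 5583 to 35726 and 2712 to 35829. The part of either marker set in the result was not tested. No exon of another gene overlaps Iars in GENCODE M21. Its neighbours on the chromosome did not pass the test: Nol8, a nucleolar protein gene, had a log2 difference of 0.11 (limma adjusted p = 0.782), Cenpp, a centromere protein gene, 0.66 (limma adjusted p = 0.471) and Ogn, a matrix proteoglycan gene, 0.64 (limma adjusted p = 0.623).

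**Figure D2:**
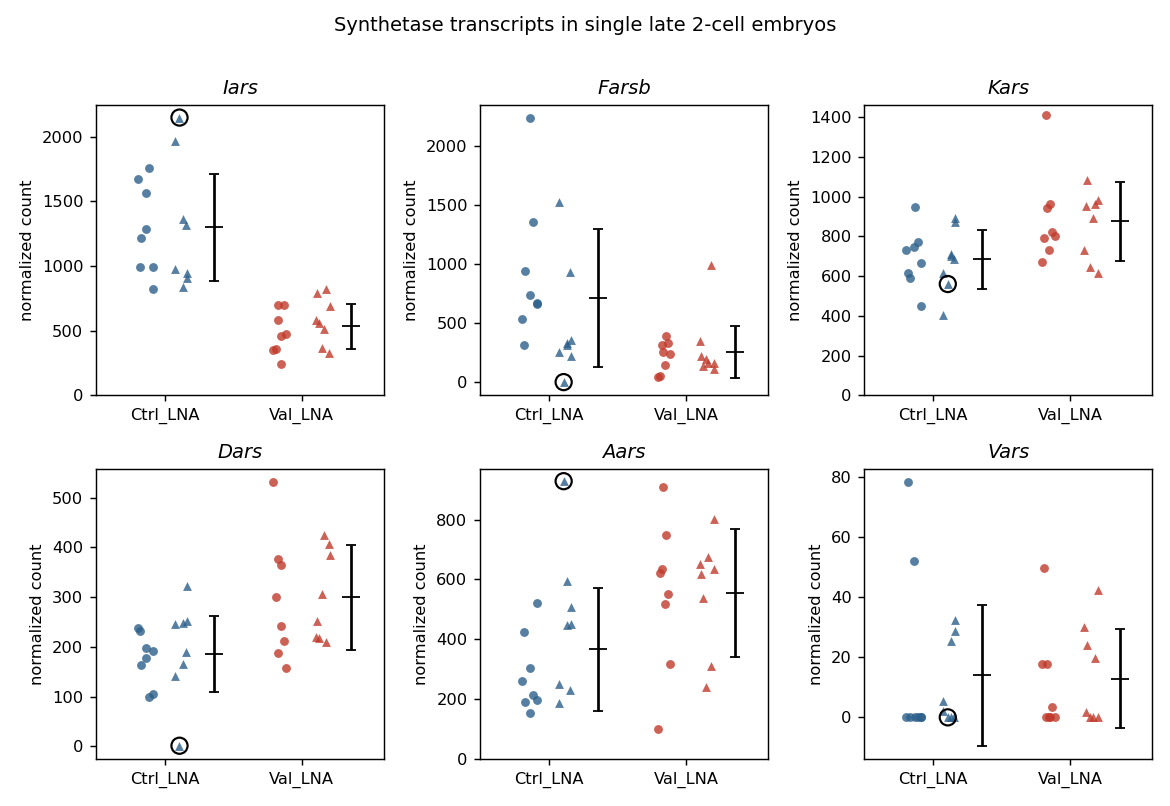
Normalized counts (vertical axes) of 6 cytoplasmic synthetase genes in each embryo, Ctrl_LNA in blue and Val_LNA in red, with the lower runs of embryo numbers as circles, the upper runs as triangles, the mean ± SD of 16 embryos as black bars and Ctrl_LNA 48 ringed. Iars falls into 2 nearly separate bands, 820 to 2148 in controls and 238 to 823 in Val_LNA, while the groups overlap for Farsb, Kars, Dars, Aars and Vars.

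To set the isoleucine enzyme against its own family within each embryo, levels were divided by the length of the principal transcript and expressed as a share of the summed level of the 20 cytoplasmic genes. This share does not depend on the size factor of the embryo. Iars made up 10.8% ± 2.43 of the summed level per kb in Ctrl_LNA (range 7.71% to 15.6%) and 5.25% ± 1.65 in Val_LNA (range 2.95% to 7.93%, SD, n = 16 each). Here too 15 of 16 Val_LNA embryos lay below the lowest control and 15 of 16 controls above the highest Val_LNA embryo. The share of Farsb, for phenylalanine, was 5.44% ± 4.55 in Val_LNA and 13% ± 9.36 in Ctrl_LNA. Shares add up to a whole, so they are not independent of each other. Kars, for lysine, took 19% ± 3.24 in Val_LNA against 12.9% ± 3.07 in Ctrl_LNA (SD, n = 16 each). Kars was the synthetase with the highest level per kb in 13 of 16 Val_LNA and 5 of 16 Ctrl_LNA embryos, and Farsb in 1 of 16 and 6 of 16.

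**Figure D3:**
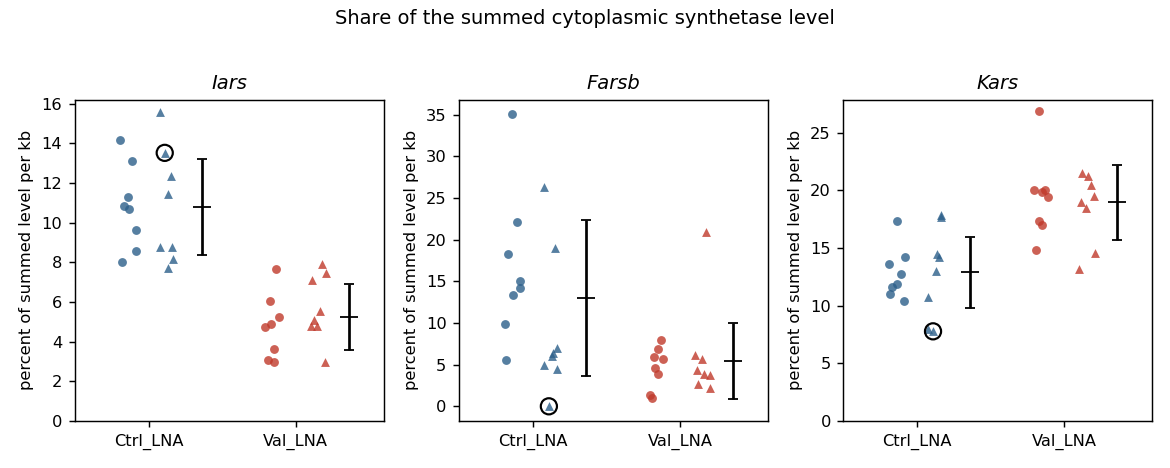
Share of the summed level per kb of the 20 cytoplasmic synthetase genes taken by Iars, Farsb and Kars in each embryo (vertical axes, percent), with symbols as in the plot of counts by embryo. The Iars share was 7.71% to 15.6% in controls and 2.95% to 7.93% in Val_LNA embryos. The Farsb share spread widely in controls, up to 35%.

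Iars is 1 of 3 cytoplasmic enzymes for branched-chain amino acids, and the other two stood much lower. Vars charges the cytoplasmic valine tRNAs, the family that tRFValCAC comes from. It was at 0 in 7 Val_LNA embryos and in 9 Ctrl_LNA embryos, with medians of 2.63 and 0, highest values of 49.7 and 78.5, and means of 12.9 ± 16.6 and 14 ± 23.5 (SD, n = 16). Its log2 difference was 0.39 (95% interval -1.30 to 2.08, limma adjusted p = 0.842) and 0.26 without Ctrl_LNA 48, and edgeR and DESeq2 gave the opposite sign (-0.27 and -0.12), as did centring each embryo on its median gene (-0.06). A value at 0 in a single-embryo library can be a transcript that was missed. The valine enzyme of the mitochondrion, Vars2, had 32.2 ± 26.1 in Val_LNA against 16.7 ± 14.1 in Ctrl_LNA (SD, n = 16), a log2 difference of 0.64 (limma adjusted p = 0.651) that was 0.41 without Ctrl_LNA 48, and 465 of its exon bases are shared with an antisense gene. Lars, for leucine, had 48.3 ± 44.4 and 56.4 ± 55.3 (SD, n = 16 each, log2 difference -0.19, limma adjusted p = 0.92, and -0.51 without Ctrl_LNA 48). The interval for Vars thus reaches past 1 log2 unit on either side of 0.

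The mitochondrial isoleucine enzyme did not pass the test. Iars2 had 31.8 ± 29.3 in Val_LNA against 18.1 ± 14.7 in Ctrl_LNA (SD, n = 16 each), a log2 difference of 0.45 with an interval of -1.08 to 1.99 (limma adjusted p = 0.792) that was 0.23 without Ctrl_LNA 48, and 2034 of its exon bases overlap Rab3gap2 on the opposite strand. Because the libraries do not mark strand, reads from these bases could belong to either gene.

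Among the 8 enzymes of the multisynthetase complex Iars was the 1 that passed, and 5 of the 8 (62.5%) had a positive log2 difference, beside 64.3% of all tested genes. Without Ctrl_LNA 48 it was 3 of 8 (37.5%) beside 54.2%. Dars, for aspartate, had a lowest, median and highest value of 158, 276 and 531 in Val_LNA and of 1.05, 190 and 323 in Ctrl_LNA, where the lowest value is Ctrl_LNA 48. The groups overlapped, with 14 of 16 Val_LNA embryos above the control median. Its log2 difference was 0.99 (limma adjusted p = 0.284), and 0.58 without that embryo (limma adjusted p = 0.0846). Eprs, the fused glutamate and proline enzyme, was named after its values were seen. It had 464 ± 145 and 305 ± 148 (SD, n = 16), a log2 difference of 1.06 (limma adjusted p = 0.343), which was 0.55 without Ctrl_LNA 48, where Eprs was at 0 (limma adjusted p = 0.154).

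Kars charges lysine tRNAs in both compartments from 1 gene. It ran from 613 through a median of 856 to 1409 in Val_LNA and from 402 through 696 to 947 in Ctrl_LNA. The ranges overlapped between 613 and 947, and 13 of 16 Val_LNA embryos lay above the control median. The log2 difference was 0.35 (limma adjusted p = 0.257). It was -0.09 when each embryo was centred on its median gene, with all embryos. That was the 1 setting that reversed its sign. The other 49 settings kept the sign, among them centring without Ctrl_LNA 48. Kars was also the least variable of the 20 cytoplasmic genes, with a coefficient of variation of 22.7% in Val_LNA and 21.6% in the other 15 controls.

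The glutamine enzyme Qars had 714 ± 249 in Val_LNA against 820 ± 348 in Ctrl_LNA (SD, n = 16), and the log2 difference moved from 0.18 to -0.30 when Ctrl_LNA 48, at 3.15, was left out (limma adjusted p = 0.878 and 0.419). Rars, for arginine, had 425 ± 313 and 562 ± 454 (SD, n = 16, log2 difference -0.45, limma adjusted p = 0.652, and -0.31 without Ctrl_LNA 48). Mars, for methionine, had 108 ± 91.5 and 96.3 ± 73.2 (SD, n = 16, log2 difference 0.03, limma adjusted p = 0.988), and the difference turned to -0.37 without Ctrl_LNA 48. Set against the mean log2 level of the other 7 complex enzymes in the same embryo, Iars stood higher by 2.71 ± 1.48 in Ctrl_LNA and by 1.13 ± 0.902 in Val_LNA (SD, n = 16 each), and by 2.38 ± 0.625 in the other 15 controls. The scaffold genes did not pass: Aimp1 had a log2 difference of 0.36 (limma adjusted p = 0.732, -0.08 after centring), Aimp2 -0.26 (limma adjusted p = 0.562) and Eef1e1 -0.21 (limma adjusted p = 0.777, and 0.05 in the lower runs). Without Ctrl_LNA 48 these were 0.15 for Aimp1, -0.18 for Aimp2 and -0.03 for Eef1e1. Aimp1 was scarce, at 13.9 ± 9.25 and 12.2 ± 11, whereas Aimp2 stood at 649 ± 224 and 781 ± 324 (SD, n = 16 each).

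Cytoplasmic phenylalanine is charged by a tetramer made from a pair of genes, Farsa for the catalytic alpha subunit and Farsb for the beta subunit. Farsb (chr1:78417975-78488897, minus strand, GRCm38), named after its values were seen, had a lowest, median and highest count of 46.7, 212 and 996 in Val_LNA and of 1.05, 599 and 2234 in Ctrl_LNA. Most Val_LNA embryos were low, 15 of 16 being below the control median, but the ranges overlapped and the control minimum is Ctrl_LNA 48. Means were 258 ± 222 and 713 ± 582 (SD, n = 16), with a log2 difference of -1.08 that did not pass (limma adjusted p = 0.389). Without Ctrl_LNA 48 it was -1.59 and passed (limma adjusted p = 0.00531). By count tests, edgeR had an adjusted p of 0.0724 with all embryos and 0.00423 without that embryo, and DESeq2 had an adjusted p of 0.0226 with all.

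The Farsb difference was uneven between the runs. It was -2.16 in the lower runs (limma adjusted p = 0.0249), where the means were 222 ± 128 in Val_LNA against 934 ± 608 in Ctrl_LNA (SD, n = 8 each). In the upper runs it was 0.01 (limma adjusted p = 0.999), or -0.96 without Ctrl_LNA 48 (limma adjusted p = 0.398), with 293 ± 293 in Val_LNA against 563 ± 488 in the other 7 controls. Whether the runs differ was not tested. Farsb shares 248 exon bases with Sgpp2 on the opposite strand.

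Farsa did not pass in any of the settings tried. It had 133 ± 89.0 in Val_LNA against 145 ± 95.9 in Ctrl_LNA (SD, n = 16), a log2 difference of -0.07 (limma adjusted p = 0.966) and -0.51 without Ctrl_LNA 48, and its sign changed between settings. On the log2 scale Farsb stood above Farsa by 2.15 ± 1.82 in Ctrl_LNA and by 1.15 ± 2.35 in Val_LNA (SD, n = 16 each), which overlap widely. Fars2, the single-chain phenylalanine enzyme of the mitochondrion, had 394 ± 253 and 293 ± 188 (SD, n = 16), a log2 difference of 0.44 (limma adjusted p = 0.541) that was -0.01 after centring.

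Aars, for alanine, was the remaining gene with a small unadjusted p. It ran from 102 through a median of 621 to 910 in Val_LNA and from 155 through 282 to 928 in Ctrl_LNA, where the highest value was Ctrl_LNA 48. Val_LNA embryos were mostly high, 14 of 16 being above the control median, and the ranges coincided almost fully. The log2 difference was 0.63 (limma adjusted p = 0.293), and 0.73 without Ctrl_LNA 48 (limma adjusted p = 0.114). Aars shares 1326 exon bases with Exosc6, an RNA exosome gene on the same strand, so its counts are uncertain. The other cytoplasmic enzymes, for cysteine, glycine, histidine, asparagine, serine, threonine, tryptophan and tyrosine, had log2 differences from -0.34 (Tars) to 1.11 (Cars) with limma adjusted p of at least 0.389, and without Ctrl_LNA 48 from -0.76 (Tars) to 0.78 (Cars) with at least 0.483. Cars, for cysteine, had 80.5 ± 51.8 in Val_LNA against 61.8 ± 70.6 in Ctrl_LNA (SD, n = 16).

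By level, per kb of principal transcript and averaged over the 32 embryos, the family spanned more than 2 orders of magnitude. Kars was highest at 388 normalized counts per kb, followed by Qars at 274, Farsb at 238, Rars at 234 and Iars at 207. Kars did not lead in both groups: in Ctrl_LNA the mean of Farsb, at 350 per kb, stood above that of Kars, at 341, and in Val_LNA Farsb was at 127 and Kars at 435. The ranges over embryos of each neighbouring pair among these 5 overlapped. In Ctrl_LNA the Iars level was 293 per kb and in Val_LNA 120, so that it stood beside Qars in controls and between Farsb and Wars, at 113, in Val_LNA. At the other end were Vars at 3.26, Nars2, the asparagine enzyme of the mitochondrion, at 2.91, and Aars2 at 1.83. Fars2 was highest in the mitochondrial list at 162 per kb. Of its exon bases, 501 overlap Nrn1 and 115 overlap Lyrm4, each on the opposite strand, so some of its reads could belong to those genes.

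**Figure D4:**
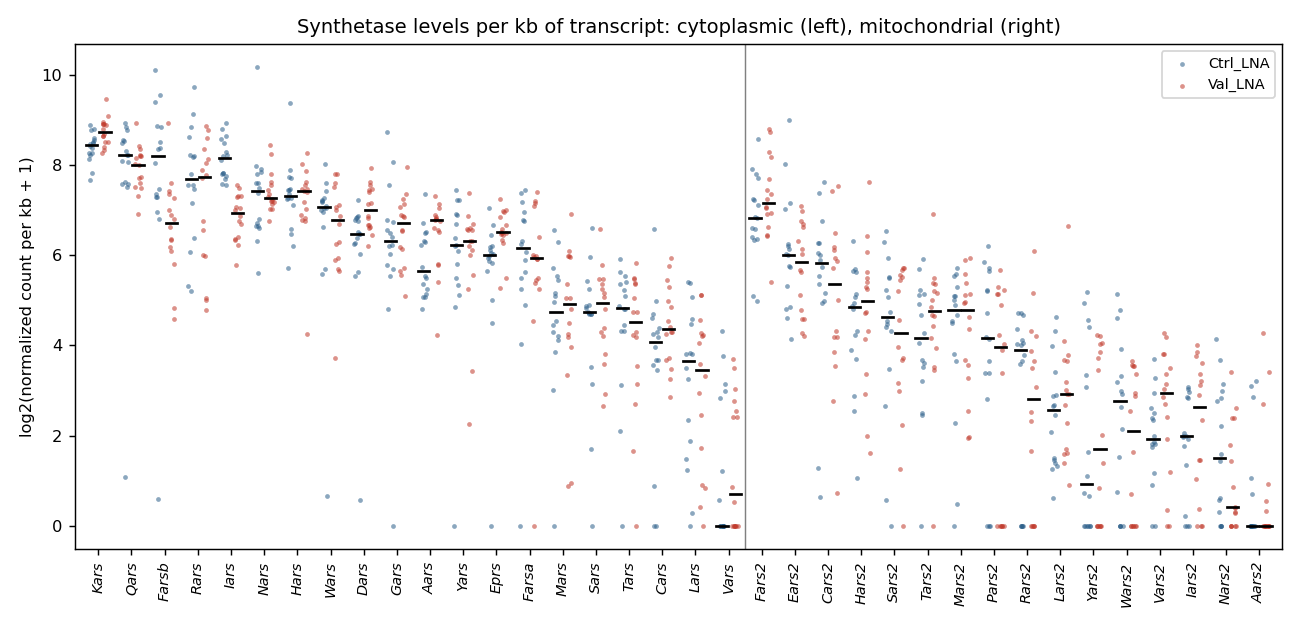
Log2(normalized count per kb + 1) of the 36 synthetase genes in each Ctrl_LNA (blue) and Val_LNA (red) embryo, ordered by mean level within the cytoplasmic (left) and mitochondrial (right) list, with black lines at group medians. Kars, Qars, Farsb, Rars and Iars lead the cytoplasmic list and Fars2 the mitochondrial list, and Vars and many mitochondrial genes are at 0 in several embryos.

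The mitochondrial enzymes were lower and less evenly detected. Of the cytoplasmic genes 15 of 20 were above 0 in each of the 31 embryos other than Ctrl_LNA 48, and of the mitochondrial genes 6 of 16. The median coefficient of variation was 54.7% in Val_LNA and 51.5% in the other 15 controls for the cytoplasmic list, and 100% and 76.9% for the mitochondrial list. The 95% intervals of the log2 differences had a median half-width of 1.10 in the cytoplasmic and 1.40 in the mitochondrial list. Of the 15 mitochondrial genes tested, 0 passed by limma in either direction, also without Ctrl_LNA 48, 0 had an unadjusted p under 0.05 in either fit, and edgeR called 0. The shares over all tested genes were 1.31% lower and 0.881% higher by adjusted p, and 5.85% and 8.88% by unadjusted p, with all embryos. The log2 differences ran from -1.03 for Pars2, the proline enzyme, to 0.64 for Vars2, and without Ctrl_LNA 48 from -1.34 for Pars2 to 0.55 for Fars2. Nars2 had 6.93 ± 10.3 in Val_LNA against 15 ± 18.6 in Ctrl_LNA (SD, n = 16, log2 difference -0.88, limma adjusted p = 0.558). Aars2, the alanine enzyme, did not pass the filter on low values and was above 0 in 6 Val_LNA and 5 Ctrl_LNA embryos.

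Summed over the family, the cytoplasmic level per kb was 2307 ± 379 in Val_LNA against 2677 ± 350 in Ctrl_LNA (SD, n = 16 each), and without Iars 2186 ± 368 and 2384 ± 278. The mitochondrial sum was 497 ± 142 and 485 ± 151. Together the 36 genes took 0.181% ± 0.041 of all normalized counts in Val_LNA and 0.206% ± 0.0215 in Ctrl_LNA. These ranges overlapped for each sum, and no test was made of them.

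The start-site windows, 250 bases before to 50 after the RefSeq start, were then searched for the core of the amino acid response element. RefSeq windows were at hand for 27 of the 36 genes, 13 cytoplasmic and 14 mitochondrial. The letters TGATGNAA, on either strand, occurred in 5 of the 13 cytoplasmic genes, in 0 of the 14 mitochondrial genes and in 3.97% of all 32851 windows. The synthetase counts are of genes, and the share over all is of windows. A match is a description of the letters and not evidence of binding. The matches of 4 of these genes are shown because the genes share these letters; each line is the strand of the gene, 5′ to 3′, with the match in capitals (GRCm38.p6, RefSeq).
Iars, chr13:49682126-49682155, plus strand: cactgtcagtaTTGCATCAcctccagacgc
Tars, chr15:11399655-11399684, minus strand: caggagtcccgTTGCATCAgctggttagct
Gars, chr6:55037960-55037989, plus strand: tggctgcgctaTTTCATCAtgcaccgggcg
Yars, chr4:129189895-129189924, plus strand: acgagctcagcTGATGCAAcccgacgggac

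The Iars and Tars matches have the same 8 letters. The Yars match holds these letters read on the opposite strand. Among the 5 genes that hold the letters both signs occurred: the log2 differences were -1.30 for Iars, -0.34 for Tars, the threonine enzyme, 0.13 for Yars, the tyrosine enzyme, 0.53 for Gars, the glycine enzyme, and 0.63 for Aars, and of these Iars passed the test. Without Ctrl_LNA 48 they were -1.25, -0.76, -0.35, 0.05 and 0.73 in the same order. The E-box letters CACGTG, which read the same on both strands, occurred in 4 of 13 cytoplasmic genes (Aars, Farsb, Iars and Tars), in 1 of 14 mitochondrial genes (Ears2) and in 7.15% of all windows. Aars, Iars and Tars held both motifs.

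Genes that act beside the synthetases were taken from 4 lists, to be read against the background of 1.31% lower and 0.881% higher (limma, all embryos), 2.63% and 1.57% (without Ctrl_LNA 48), and the median of all tested genes, 0.26 and 0.07. Among 22 partners, which bring charged tRNA to the ribosome, trim mischarged tRNA or complete charging in the mitochondrion, limma called 0 in either direction, edgeR 0, and 2 had an unadjusted p under 0.05, both lower, beside 5.85% lower and 8.88% higher of all tested genes. The median log2 difference was 0.17, and -0.03 without Ctrl_LNA 48. Eef1d, a subunit of the factor that recharges elongation factor 1A, had the smallest p, with 446 ± 205 in Val_LNA against 648 ± 226 in Ctrl_LNA (SD, n = 16, log2 difference -0.59, limma adjusted p = 0.282).

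Among 33 tested genes of the amino acid response, from 37 listed, limma called 0 higher and 1 lower, with a median of 0.02 that was -0.22 without Ctrl_LNA 48. The gene was Slc3a2, the heavy chain that carries several amino acid exchangers, including the one for leucine and isoleucine, to the plasma membrane. It had a lowest, median and highest count of 37.5, 248 and 479 in Val_LNA and of 465, 827 and 1412 in Ctrl_LNA. As with Iars, 15 of 16 Val_LNA embryos lay below the lowest control. The means were 243 ± 138 and 859 ± 305 (SD, n = 16), a log2 difference of -2.01 (limma adjusted p = 3.90e-05), and it passed in each run, with -1.39 in the lower (limma adjusted p = 0.00564) and -2.64 in the upper (limma adjusted p = 0.014). Without Ctrl_LNA 48 limma called 3 lower (2.63% of all tested genes), and with all embryos edgeR called 2 lower, Slc3a2 and Mthfd2 (1.05%), and DESeq2 4 lower, these with Slc1a5 and Cth (2.17%). Mthfd2, a mitochondrial folate enzyme, and Slc1a5, a glutamine transporter, were the genes that limma added, and they and Cth were named after their values were seen. Mthfd2 had 262 ± 191 and 1366 ± 1050 (SD, n = 16), a log2 difference of -1.90 with all embryos (limma adjusted p = 0.127) and -2.47 without Ctrl_LNA 48 (limma adjusted p = 5.78e-05), and passed with all embryos by edgeR (adjusted p = 0.00144) and DESeq2 (adjusted p = 9.54e-06). Slc1a5 had 117 ± 95.4 and 292 ± 177 (SD, n = 16), with -1.23 (limma adjusted p = 0.271) and -1.63 (limma adjusted p = 0.00569).

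The transcription factor gene of that response did not pass. Atf4 had 945 ± 228 in Val_LNA against 786 ± 319 in Ctrl_LNA (SD, n = 16), a log2 difference of 0.47 (limma adjusted p = 0.451) and 0.20 without Ctrl_LNA 48, at 36.8 (limma adjusted p = 0.516). Asns, the asparagine synthetase gene that is a usual readout of the response, was not tested, being above 0 in 2 Val_LNA and 6 Ctrl_LNA embryos.

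Among 42 genes that transcribe or trim tRNA, limma called 1 higher and 1 lower, as edgeR did, with a median of 0.15 that was -0.22 without Ctrl_LNA 48. Polr3f, a subunit of RNA polymerase III, ran from 60.3 through a median of 236 to 610 in Val_LNA and from 0 through 70.5 to 243 in Ctrl_LNA. The log2 difference was 2.05 (limma adjusted p = 0.0121), and 15 of 16 Val_LNA embryos lay above the control median. The control value of 0 is Ctrl_LNA 48, and without it the Polr3f difference was 1.65. Polr3f passed whichever embryo was left out (limma adjusted p of at most 0.0222). Rpp25, a protein of RNase P, which trims the 5′ leader of tRNA, had 165, 654 and 1713 against 840, 1449 and 2558, with 13 of 16 Val_LNA embryos below the lowest control, and fell by 1.21 on the log2 scale (limma adjusted p = 0.00179). With all embryos, Rpp25 kept its direction in each run without passing (-1.02 in the lower and -1.39 in the upper runs), and Polr3f passed in the lower runs (2.20, limma adjusted p = 0.00737) and not in the upper (1.89, limma adjusted p = 0.479). Among 20 tested genes of mitochondrial translation and transcription, from 24 listed, limma called 0 and edgeR 0, with 2 at an unadjusted p under 0.05, both lower, and a median of 0.37 that was 0.06 without Ctrl_LNA 48. Polrmt, the mitochondrial RNA polymerase, had 154 ± 172 in Val_LNA against 326 ± 206 in Ctrl_LNA (SD, n = 16, log2 difference -2.04, limma adjusted p = 0.142).

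**Figure D5:**
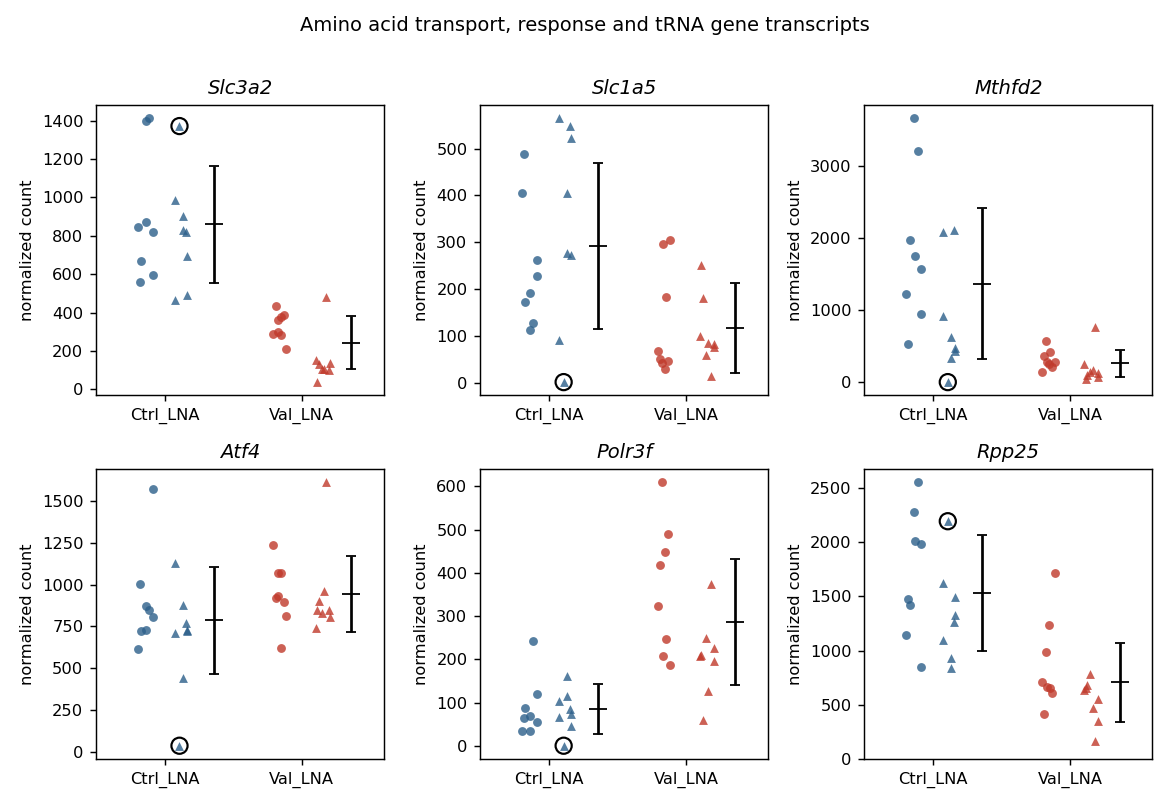
Normalized counts (vertical axes) per embryo of 3 amino acid transport and folate genes, of Atf4 and of 2 tRNA synthesis genes, with symbols as in the plot of synthetase counts by embryo. Slc3a2 lies at 465 to 1412 in controls and at 37.5 to 479 in Val_LNA embryos, Mthfd2 and Slc1a5 are near 0 in Ctrl_LNA 48, and the Atf4 groups overlap.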

How the data were processed

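Single-embryo mRNA libraries were made by template switching, 20 PCR cycles and tagmentation, per the labels' protocols, without molecular identifiers or strand marking, so PCR copies count as reads. Bowtie2, STAR, SAMtools, DESeq2 and the build mm10 are named in the submitters' processing notes; the sources used here give neither versions nor roles. The deposited values are a signal: per the file headers, the authors divided each gene's count by the size factor of its embryo, and the deposited size factors are a ratio per embryo. Multiplying both gave whole reads within 0.01 for 1095136 of 1095136 values (100%, largest distance 0.0086); these reads gave depth and entered the count tests. No column lacked a sample. Identifiers matched GENCODE M21 for 34179 of 34223 genes (99.9%). Levels per kb used the longest principal transcript.

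Limma (3.58.1, R 4.3.3, trend and robust) tested log2(normalized count + 1) over 15559 genes with at least 10 in at least 8 of 32 embryos, called at an adjusted p under 0.05. The added 1 shrinks the change of low genes, while embryos at or near 0 weigh heavily on a mean of log2 values. A log2 difference can thus be larger in size than the log2 ratio of the group means, as for Polrmt. It can also differ from that ratio in sign, as for Vars. Members and lists were chosen with earlier results of these data known. Named genes were synthetase genes called or with an unadjusted p under 0.05, Vars, Vars2, the highest and lowest level per kb in each list, untested members, up to 3 called (or the 1 first) genes of each related list, Atf4, Asns, Aimp1, Aimp2 and Eef1e1, 19 in all; further genes are named with their values as background or as said in the text. Alternatives were edgeR (4.0.16), DESeq2 (1.42.0) and limma-voom on the reads, other pseudocounts, filters, scalings, covariates and weights, single runs, and leaving out each embryo. Scripts were tested on simulated data. The site sequence of the remaining gene with the response element letters is not reported here.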

Additional observations from a re-analysis of the deposited data

How the results depend on the processing

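No paired analysis was possible because the groups share no embryo numbers. Leaving out each of the 32 embryos in turn gave 1 to 2 synthetase genes lower and 0 higher each time, 176 to 409 of all tested genes lower and 100 to 245 higher; the upper ends without Ctrl_LNA 48. The Iars difference ranged from -1.35 to -1.23. Iars was called lower under every setting except the upper runs (0 synthetase genes called, also without Ctrl_LNA 48). The count of lower synthetase genes was 2, Iars and Farsb, by DESeq2 with and without Ctrl_LNA 48, edgeR without it, array weights, centring with and without it, and the lower runs; array weights also called 1 higher, Aars (0.81, limma adjusted p = 0.0434). Of all genes, DESeq2 called 206 higher and 338 lower (266 and 402 without Ctrl_LNA 48), array weights 353 and 564, edgeR 29 higher (84 without it), centring 61 higher, and 433 lower without it, a filter of 50 in 16 embryos 91 higher, no filter 87 higher, the lower runs 83 lower, the upper runs 2 and 33 (7 and 124 without it). The cause was not tested.

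Centring with all embryos turned Kars (-0.095), Vars (-0.060), Fars2 (-0.011) and Aimp1 (-0.083). Centring without Ctrl_LNA 48 kept the sign of each. Vars was also -0.12 by DESeq2 (-0.34 without Ctrl_LNA 48), -0.27 by edgeR (-0.36 without it) and -0.091 in the upper runs without it. Vars2 was -0.050 and Eef1e1 0.050 in the lower runs. In the upper runs Aimp1 was -0.072 (-0.52 without Ctrl_LNA 48), Farsb 0.0066 and Farsa 0.86; Farsa was 0.32 with log2 total reads as covariate and -0.51 to 0.36 with embryos left out. DESeq2, the upper runs and centring, each without Ctrl_LNA 48, were added after seeing the data. Vars and several mitochondrial genes were at 0 in some embryos; the part of depth in this was not tested.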
